A study of Drosophila melanogaster with 39 samples.

Results

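The odorant receptor (Or), ionotropic receptor (Ir) and gustatory receptor (Gr) genes of Drosophila melanogaster were followed through single-head RNA libraries. They were taken by name: every gene whose symbol starts with Or, Ir or Gr, then a number and a letter, together with the co-receptor gene Orco. The rule found 186 of the 17559 genes counted, made up of 60 odorant receptor genes with Orco, 66 ionotropic receptor genes and 60 gustatory receptor genes. All heads came from adult males of the genotype Cantonized w1118, a white-eyed strain brought into a Canton background, and no transgene is named. The sources used here do not give the age in days. Each library was made from poly(A) RNA of the head of a single fly, so a library is a fly.

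The groups were naive Mid with 7 libraries, naive High with 7, shocked Mid with 8, shocked High with 6 and shocked Low with 9. Shocked flies had received electric shocks of 60 V for 5 min, and Mid, High and Low are classes of place preference scored in a behavioural assay 1.5 h later, with freezing at 2.5 h. The protocol text is the same for naive and shocked flies, so the titles alone separate them, and the sources used here do not say how the preference classes were bounded. All flies of a class were placed there by their own behaviour, and one batch date is given for all, so no batch could be separated. The p-values below measure the spread between such single-fly libraries.

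Odorant receptors are ligand-gated ion channels of the olfactory neurons in the antenna and the maxillary palp, where a tuning receptor pairs with the shared co-receptor Orco. Ionotropic receptors, relatives of glutamate receptors, work the same way with the co-receptors Ir25a, Ir76b and Ir8a, and serve acid and amine smell, taste, and the sensing of temperature and humidity. Gustatory receptors detect sugars and bitter compounds in taste neurons of the labellum and legs, and a few sense carbon dioxide, heat or internal fructose. Most members are made by few neurons of the head, so in RNA of a whole head they are diluted by the RNA of eye, brain and fat body. In such bulk samples, fewer cells of a type and less RNA per cell cannot be told apart.

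Libraries held 5.01 to 11.3 megacounts (M), with a median of 7.65 M and group medians between 7.21 M in shocked Low and 8.50 M in shocked Mid. Levels are given as counts per M (CPM), and, where genes are compared with each other, as counts per kilobase of exon per M (RPKM). At the median depth a level of 1 CPM is a handful of reads. The labels call the tissue head, and marker genes of the compound eye, the brain, the antenna and the fat body were all present. Summed photoreceptor markers came to 87210 ± 8281 CPM, and the 10 antennal odorant-binding protein (Obp) genes summed to 2574 ± 756 CPM (SD, n = 37).

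Of the 186 receptor genes, 177 had at least 1 read in some library: 58 odorant, 64 ionotropic and 55 gustatory receptor genes. In 19 or more of the 37 libraries 83 had a read, and 27 had one in each. A mean of at least 1 CPM over all libraries was reached by 34 members, which is 18.3% of them, against 57.1% of all genes counted. These 34 are called the better measured members here, and they hold 14 odorant, 12 ionotropic and 8 gustatory receptor genes. For 9 members no read was counted in any library, which allows a level of up to 0.0104 CPM over all libraries together, counting error only. They are Or59a, Or10a, Ir52a, Ir94g, Gr10a, Gr64b, Gr64c, Gr64d and Gr64e. Several of these share exons in the annotation: Gr64b and Gr64c share all of their exon bases, Or10a and Gr10a share all of theirs, and Gr64d and Gr64e share 97.3% and 99.1%. The sources used here do not say how the counting step treated reads in shared exons, so no level was drawn from these 6 zeros.

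The 27 members with a read in all 37 libraries were Orco, Or1a, Or13a, Or22a, Or43b, Or63a, Or82a and Or83a among the odorant receptor genes. The ionotropic ones were Ir21a, Ir25a, Ir31a, Ir41a, Ir51b, Ir62a, Ir68a, Ir76a, Ir76b, Ir85a and Ir100a, and the gustatory ones were Gr5a, Gr8a, Gr28b, Gr32a, Gr39a, Gr43a, Gr64f and Gr66a. The co-receptor Ir8a, in contrast, had a read in 32 libraries and a mean of 0.715 ± 0.722 CPM.

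Per length, Or43b, an antennal receptor for fruit esters, stood first with a mean of 28.1 RPKM. It was followed by Ir76a, an antennal amine receptor, with 12.8 RPKM, and by Orco with 12.6 RPKM. Next came Or63a, a receptor described in larvae, with 4.97 RPKM and Ir76b with 4.81 RPKM. Ir25a stood at 2.26 RPKM and Ir8a at 0.255 RPKM, so the 4 co-receptors ran in the order Orco, Ir76b, Ir25a, Ir8a.

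**Figure D1:**
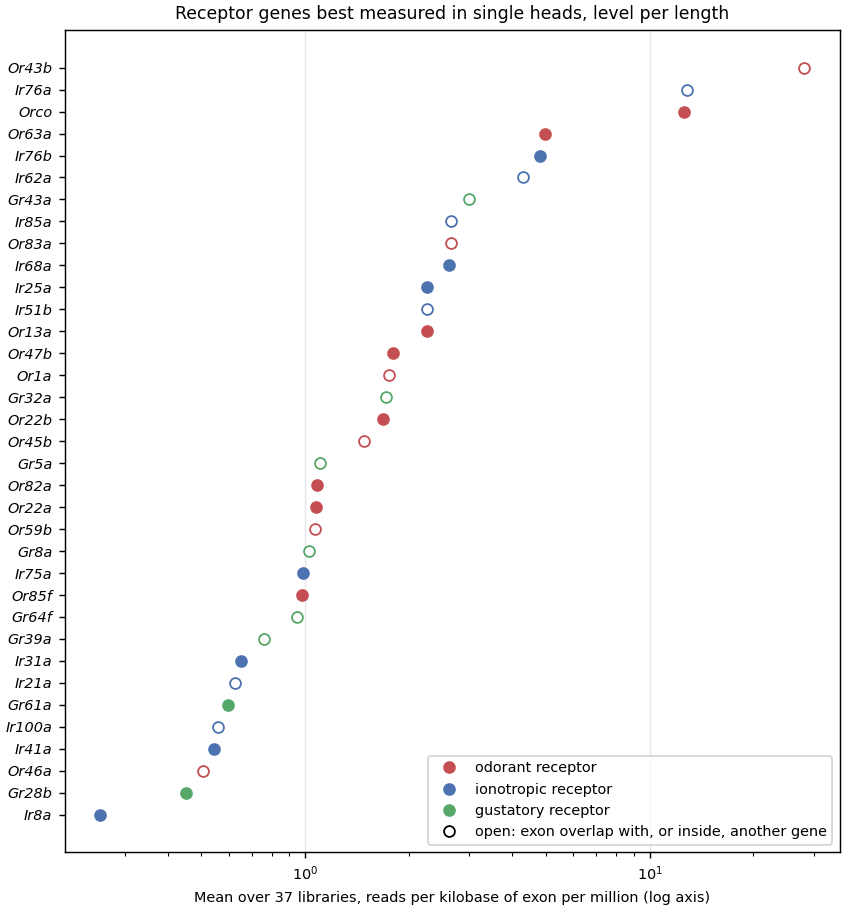
Mean level over 37 libraries in counts per kilobase of exon per megacount (RPKM), on a log axis, for the 34 better measured receptor genes and Ir8a. Open circles mark genes that share exon bases with, or lie inside, another gene; Or43b leads with 28.1 RPKM and is one of them, and Orco with 12.6 RPKM is the highest filled circle.

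Many of these levels could hold reads of a neighbour, since the sources used here give no strand setting for the counting. Only if the counting ignored strand would reads of genes that overlap on opposite strands be impossible to tell apart. In the Ensembl release 115 annotation, 133 of the 186 members were free of other genes, meaning that no exon base is shared and the gene does not lie inside another gene's span. Of the 34 better measured members 16 were free and 18 were not. Or43b lies on the minus strand of chromosome 2R at 7920835 to 7922604 (dm6), and 40.7% of its exon bases overlap Cul1, a cullin gene on the opposite strand. Ir76a lies on 3L at 19799278 to 19803427 and shares 14.1% of its exon bases with CG14102. Or83a shares 100% with CG1172 and Or45b 100% with the antisense RNA CR45281, both on the opposite strand. They had 1034 and 518 reads. The same-strand pairs that share all exon bases, Gr64b with Gr64c and Or10a with Gr10a, had 0 reads. Whether the counting used strand was not tested. Ir62a lies inside CG12090, Ir51b inside row and Gr39a inside Mio.

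Whether a member moved with its overlapping gene from library to library was checked by correlation of log2 CPM after group means were removed. Or43b and Cul1 had r = -0.003 (n = 37, permutation p = 0.985), and Ir76a and CG14102 had r = -0.008 (n = 37, permutation p = 0.968). Single groups differed in sign. Or43b with Cul1 ran from r = -0.843 in shocked High to 0.769 in naive High. Ir76a with CG14102 ran from -0.876 in naive Mid to 0.396 in shocked High. Or46a, a maxillary palp receptor that shares 100% of its exon bases with other genes, had r = 0.704 with the antisense RNA CR43467 (n = 37, permutation p = 1e-05, the smallest that 100000 permutations can give; adjusted over 48 relations p = 0.00048). Ir62a with CG12090 (r = 0.416) and Ir51b with row (r = 0.366) had adjusted p of 0.185 and 0.226.

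The free members share no exon base with another gene and lie inside none, but some lie close to one. The nearest coding gene was 34 bases from Ir25a (tank), 215 from Ir8a (mxc) and 154 from Ir31a (RpS27A), each on the same strand. For Or85f it was CG34117, 18 bases away on the opposite strand. Reads from such neighbours were not assessed. Orco, FBgn0037324, lies on the minus strand of 3R at 5407183 to 5412406, and its nearest coding gene is 2120 bases away. Or63a lies on 3L at 2961534 to 2963788 with 8.53 ± 2.25 CPM (SD, n = 37). Ir76b, FBgn0036937, lies on 3L at 20108484 to 20111534, and Ir25a, FBgn0031634, on 2L at 4830846 to 4835300. Ir68a, the moist-sensing humidity receptor, lies on 3L at 11232972 to 11236218 with 6.39 ± 1.84 CPM (SD, n = 37). Ir8a, FBgn0052704, lies on X at 9232726 to 9236585. The other free members above 1 CPM were Or13a, a receptor of the mushroom odour 1-octen-3-ol, with 2.84 CPM, Or47b, a receptor for fatty acid cues in courtship, with 2.23 CPM, and the neighbouring ester receptors Or22b with 2.19 CPM and Or22a with 1.52 CPM. Ir75a, an acid receptor, had 1.95 CPM, Gr28b, of heat and light sensing, 1.92 CPM, Ir31a 1.47 CPM, the amine receptor Ir41a 1.28 CPM, Or82a 1.25 CPM, Or85f, a receptor of wasp odour, 1.15 CPM and the sugar receptor Gr61a 1.11 CPM.

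Summed over families, the free odorant receptors without Orco came to 27.9 ± 4.64 CPM, the free ionotropic receptors to 36.1 ± 8.47 CPM and the free gustatory receptors to 7.95 ± 2.21 CPM (SD, n = 37). With the overlapping members the sums were 81.2, 84.2 and 24.8 CPM. Genes with a close paralogue nearby are uncertain, because low-quality alignments were dropped before counting; Or19a had 6 reads and its copy Or19b 56 reads in all libraries together.

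The spread from fly to fly was unequal among the members. The SD over libraries was 14.3% of the mean for Or43b and 13.9% for Ir76a, 26.3% for Or63a and 28.8% for Ir68a. It was 36.5% for Ir76b, 39.0% for Ir25a and 52.0% for Orco, which is better covered than Or63a and Ir68a. In variance per counting variance within a group, Orco had 10.2 in naive Mid, 26.2 in shocked Low, and 61.7 to 72.7 in naive High, shocked High and shocked Mid, whereas Or43b had 3.87 to 8.31 in the 5 groups. The spread of Orco was far above that of read counting in all groups, and it was least in naive Mid.

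**Figure D2:**
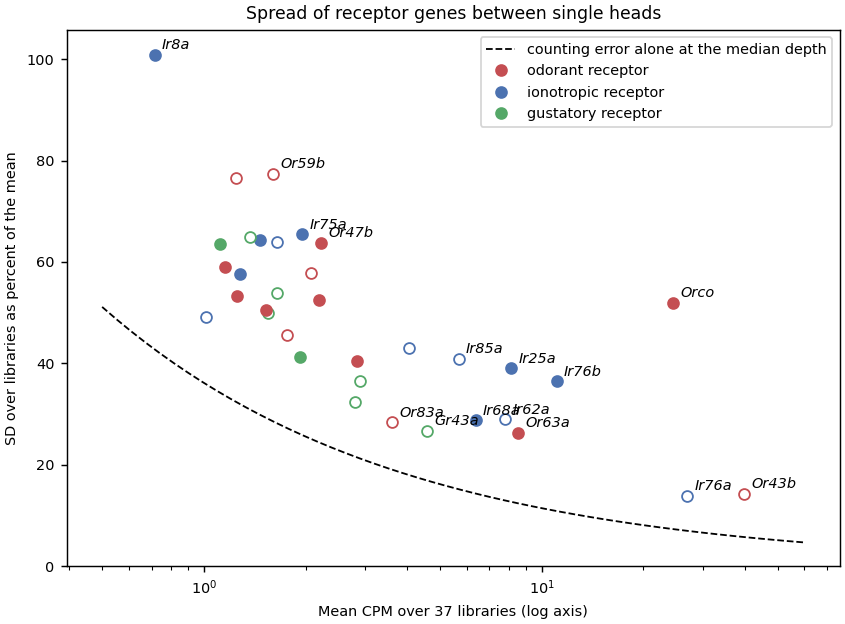
SD over 37 libraries as percent of the mean against mean CPM (log axis) for the better measured members and Ir8a; filled circles are free of other genes, open circles overlap another gene, and the dashed line is counting error alone at the median depth. All points lie above the line, and Orco at 24.5 CPM has an SD of 52.0% of its mean while Or43b at 39.7 CPM has 14.3%.

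Orco, the co-receptor that all odorant receptors need, was lowest on average in naive Mid and highest in shocked Mid. In naive Mid it ran from 9.80 to 24.4 CPM with a median of 21 and a mean of 19.8 ± 5.06 (SD, n = 7). In naive High it ran from 9.35 to 43.6 CPM with a median of 13 and a mean of 20.2 ± 12.7 (SD, n = 7). The shocked High libraries held 4.88 to 34.8 CPM, median 21.9 and mean 20.5 ± 11.5 (SD, n = 6), and the shocked Low libraries 8.14 to 34.0 CPM, median 29.0 and mean 24.2 ± 9.90 (SD, n = 9). Shocked Mid held 13.7 to 52.6 CPM with a median of 37.9 and a mean of 35.5 ± 16.5 (SD, n = 8). All 5 ranges overlapped. In the order naive Mid, naive High, shocked High, shocked Low, shocked Mid, each step was smaller than the SD of the groups beside it, except that shocked Mid lay above shocked Low by more than the SD of shocked Low.

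Ir76b, a co-receptor for amine smell and for the taste of salt and amino acids, was higher on average in each shocked group than in both naive groups. Its lowest, median and highest levels were 4.32, 7.25 and 15.8 CPM in naive Mid, and 4.84, 8.07 and 11 CPM in naive High. They were 6.75, 11.4 and 17.5 CPM in shocked Low, 10.8, 12.8 and 17.1 CPM in shocked High, and 5.48, 13.9 and 20.2 CPM in shocked Mid. The group means were 7.82 ± 2.19 (SD, n = 7) in naive High, 9.09 ± 4.17 (SD, n = 7) in naive Mid, 11.3 ± 3.60 (SD, n = 9) in shocked Low, 13.3 ± 2.39 (SD, n = 6) in shocked High and 13.8 ± 4.38 (SD, n = 8) in shocked Mid. Shocked High and naive High overlapped only between 10.8 and 11 CPM, by a single library on each side.

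Ir25a, the broadest ionotropic co-receptor, showed a similar order with smaller steps. Its means were 6.62 ± 3.47 CPM (SD, n = 7) in naive Mid, 7.41 ± 3.76 (SD, n = 7) in naive High, 7.79 ± 3.37 (SD, n = 9) in shocked Low, 9.23 ± 1.83 (SD, n = 6) in shocked High and 9.60 ± 2.72 (SD, n = 8) in shocked Mid. The ranges were 3.76 to 12.4, 4.03 to 14.3, 2.03 to 14.4, 7.43 to 12.2 and 4.06 to 12.2 CPM in that order. All groups overlapped, and no neighbouring means differed by as much as 1 SD.

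Ir8a, the co-receptor for acids, was close to the limit of counting. Shocked High held 5 reads in 6 libraries, with 4 libraries at 0, 1 read in replicate 1 and 4 reads in replicate 3. The other groups held 26 reads in naive Mid, 73 in naive High, 77 in shocked Mid and 34 in shocked Low. As levels, the lowest, median and highest were 0.119, 0.655 and 0.899 CPM in naive Mid, 0.137, 1.14 and 2.37 CPM in naive High, and 0.167, 0.901 and 2.54 CPM in shocked Mid. Shocked Low ran from 0 to 1.44 CPM with a median of 0.369, and shocked High from 0 to 0.532 CPM with a median of 0. Every group had a library inside the range of shocked High.

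**Figure D3:**
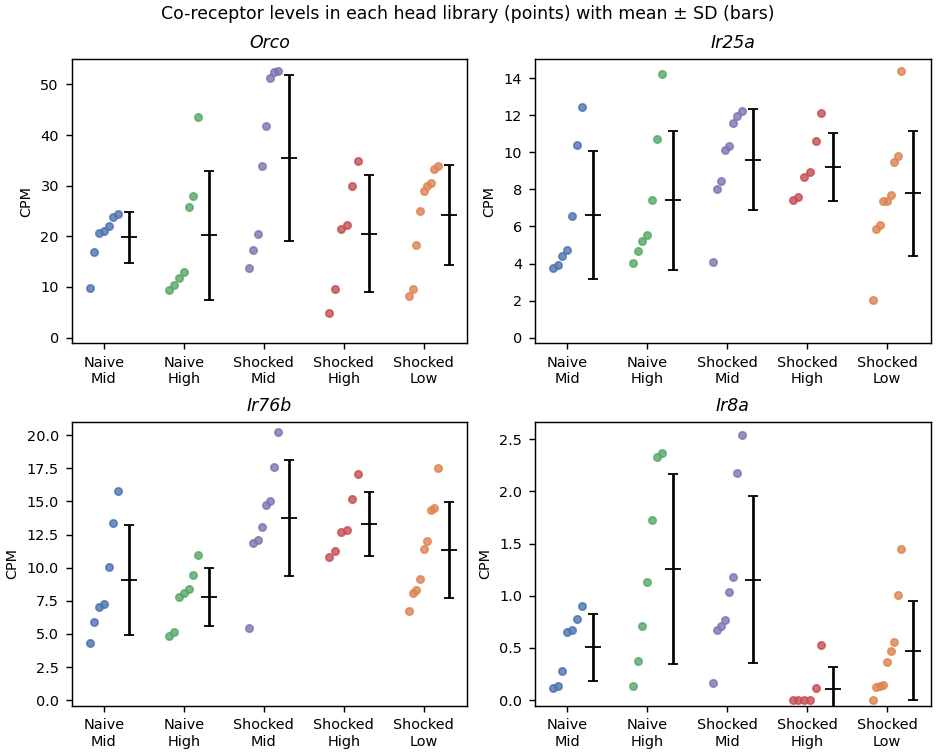
Level in CPM of Orco, Ir25a, Ir76b and Ir8a in each library (points, ordered by value within a group), with the mean ± SD beside them (bars; the Ir8a bar of shocked High is cut at 0). The Orco groups all overlap, Ir76b in shocked High starts at 10.8 CPM near the top of naive High, and 4 of 6 shocked High libraries have no Ir8a read.

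Group differences were tested across all genes in one edgeR quasi-likelihood model of the 5 groups, in 8 contrasts. The filter on low counts left 44 of the 186 members among 10272 genes: 19 odorant, 15 ionotropic and 10 gustatory receptor genes. It can keep a gene through 1 group in which it is high, so counts and medians over the 44 are given as description only and do not stand for the other members. Ir8a, Or65b, Or47a and Ir64a passed it through libraries outside shocked High, where their highest levels were 0.532, 0.362, 0.677 and 1.06 CPM. Ir64a also passed it without shocked Low, where it reached 0.984 CPM. Their fold changes and p-values in contrasts with these groups are description as well. At a Benjamini-Hochberg adjusted p of 0.05, 0 of the 44 members passed in each of the 8 contrasts, and all other values below are differences that did not pass. DESeq2 called 1 member in 1 contrast, the difference of the shock effects, and none in the others; limma-voom called none.

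For shock with High and Mid weighted equally, 0 of 44 members were called, against 0.00974% of all genes. With an unadjusted p under 0.05 there were 6 of 44 members, against 647 of 10272 genes (6.30%). The median log2 fold change of the 44 was 0.07, with 25 above and 19 below 0, beside 0.00 for all genes. Ir76b had the smallest p, and its log2 fold change was 0.67 (SE 0.18, adjusted p = 0.255), and its adjusted p ran from 0.0876 to 0.436 over 44 alternative fits. It was followed by Or46a with 1.21 (SE 0.43, adjusted p = 0.577) and Gr5a, a sugar receptor, with 0.71 (SE 0.33, adjusted p = 0.766). Or46a was between 0 and 2.37 CPM in naive Mid, 0 and 1.51 CPM in naive High, 0.501 and 3.14 CPM in shocked Mid, 0.266 and 2.87 CPM in shocked High, and 0.389 and 2.85 CPM in shocked Low. Those ranges overlap widely, and whether its reads include those of CR43467 was not tested.

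Within the High class, 0 of 44 members passed, beside 0% of all genes. An unadjusted p under 0.05 was reached by 4 of 44 members, against 581 of 10272 genes (5.66%). In shocked against naive High the log2 fold change of Ir8a was -3.40 (SE 0.85, adjusted p = 0.694). Or65b, an antennal receptor of pheromone-sensing hairs, had -2.34 (SE 0.80, adjusted p = 0.863), and Ir76b 0.75 (SE 0.26, adjusted p = 0.863). Orco had 0.00 (SE 0.39) on this scale, an error wide enough to hold a 1.5-fold difference in either direction.

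Within the Mid class, 0 of 44 members passed, against 0.0195% of all genes. An unadjusted p under 0.05 was reached by 3 of 44 members, against 1342 of 10272 genes (13.1%). Here the median of the 44 was 0.22 with 27 above 0, beside 0.01 for all genes, and 4 of 4 co-receptors were above 0. Orco had 0.84 (SE 0.36, adjusted p = 0.323), Ir76b 0.59 (SE 0.24, adjusted p = 0.298) and Ir62a -0.49 (SE 0.19, adjusted p = 0.282). The antennal Obp sum was 2388 ± 304 CPM in naive Mid and 3317 ± 808 CPM in shocked Mid, and 16 of 16 tested antennal support genes had a value above 0 in this contrast, with a median of 0.53. With that sum as a covariate, an alternative added after seeing the data, the Orco difference was 0.03 (SE 0.26, adjusted p = 0.994) and that of Ir76b 0.32 (SE 0.24, adjusted p = 0.839).

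The difference between the shock effects of the 2 classes, High minus Mid, was tested as an interaction. None of the 44 passed, beside 0% of all genes, with 4 of 44 at an unadjusted p under 0.05 against 1265 of 10272 genes (12.3%). The median of the 44 was -0.21 with 29 below 0, beside -0.01 for all genes. Ir8a had -4.58 (SE 1.06, adjusted p = 0.236) and its shock values were 1.18 in Mid and -3.40 in High. Or65b had -2.64 (SE 0.99, adjusted p = 0.294) and Ir62a 0.75 (SE 0.28, adjusted p = 0.305). DESeq2 gave Ir8a -4.77 with an adjusted p of 0.0451, the only member it called, and without replicate 3 of shocked High, which holds 4 of the 5 reads of that group, edgeR gave -6.15 with an adjusted p of 0.0271. Over the 37 alternative fits that kept Ir8a the adjusted p ran from 0.0271 to 0.781.

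**Figure D4:**
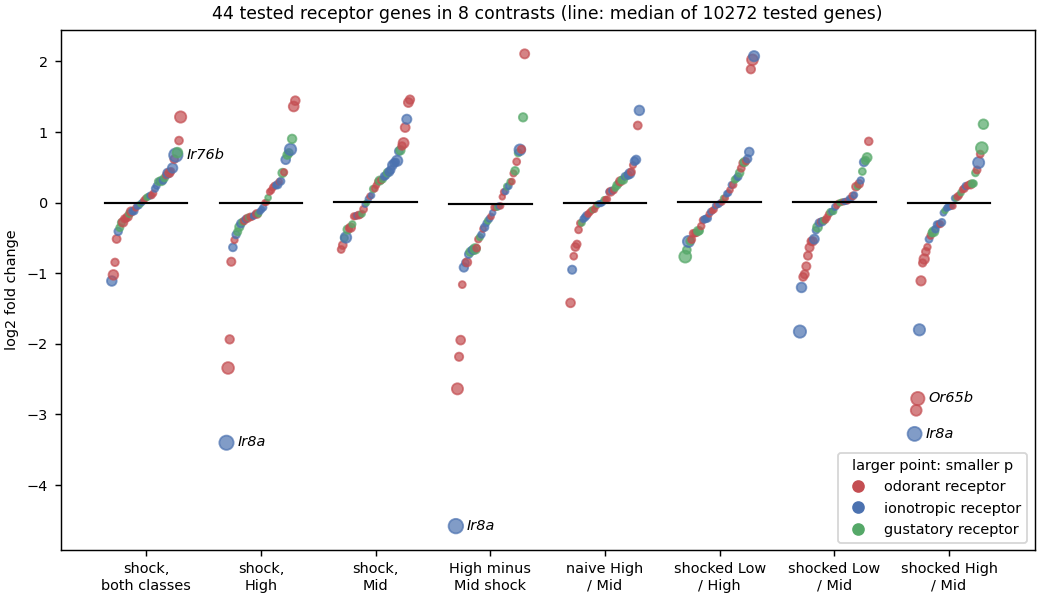
Log2 fold change of the 44 tested receptor genes in 8 contrasts, ordered by value within each contrast; larger points have a smaller p, and the black line is the median of the 10272 tested genes. None of the points passed at an adjusted p of 0.05; Ir8a lies at -4.58 in the difference of the shock effects, at -3.40 in shock within High and at -3.28 in shocked High against Mid, where Or65b lies at -2.77.

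Shocked High against shocked Mid was the contrast with the smallest adjusted p among members. None of the 44 passed, against 0.0681% of all genes. An unadjusted p under 0.05 was reached by 8 of 44 members, against 1797 of 10272 genes (17.5%). The median was -0.06 with 25 of 44 below 0, beside -0.01 for all genes; among the 22 free members it was -0.22 with 17 below 0. Ir8a had -3.28 (SE 0.84, adjusted p = 0.066), and Or65b -2.77 (SE 0.77, adjusted p = 0.072). Both genes passed the filter through groups other than shocked High, so these values are description only. Or65b, FBgn0041624, lies on 3L at 6325612 to 6327049 beside its relative Or65c. It ran from 0 to 0.362 CPM with a median of 0.139 in shocked High, and from 0.268 to 1.93 CPM with a median of 1.29 in shocked Mid. These ranges overlapped, and shocked High held 8 Or65b reads in all.

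Gr39a had a value above 0 here, 0.77 on the log2 scale (SE 0.25, adjusted p = 0.103). Gr39a encodes several splice forms of a receptor known in bitter neurons and in male courtship. It ran from 3.06 to 4.57 CPM with a mean of 3.83 ± 0.621 (SD, n = 6) in shocked High, and from 1.81 to 2.73 CPM with a mean of 2.23 ± 0.405 (SD, n = 8) in shocked Mid. Gr39a was named for its small p in this contrast, and the share of all genes with these 2 groups so far apart was not counted. The naive High libraries (2.37 to 5.02 CPM) and the naive Mid libraries (1.39 to 4.57 CPM) overlapped with each of the 2 groups. Gr39a lies inside Mio on the opposite strand, and its correlation with Mio was 0.136 (n = 37, permutation p = 0.363). Within groups that correlation ran from -0.518 in shocked High to 0.726 in shocked Low. The acid receptor Ir64a had -1.80 (SE 0.64, adjusted p = 0.118), with 0.520 ± 0.521 CPM (SD, n = 6) in shocked High and 1.81 ± 0.793 CPM (SD, n = 8) in shocked Mid. Ir62a had 0.57 (SE 0.20), Or47a -2.94 (SE 1.17), the bitter receptor Gr66a 1.11 (SE 0.53) and Orco -0.80 (SE 0.38), all with adjusted p between 0.126 and 0.268. Or47a had 5 reads in shocked High, all in 1 of its 6 libraries, and shares 12.0% of its exon bases with Cpr47Ea.

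Markers of the antenna and of fat body were set beside these values. The antennal Obp sum was 2060 ± 666 CPM (SD, n = 6) in shocked High and 3317 ± 808 CPM (SD, n = 8) in shocked Mid, with library ranges that start at 1442 and 2312 CPM. In this contrast 15 of 16 antennal support genes lay below 0, with a median of -1.20, 0 called and 14 at an unadjusted p under 0.05. Genes of Johnston's organ, which fills another antennal segment, and of sensory cilia had a median of 0.05, with 193 ± 18.8 and 191 ± 15 CPM. These sums are mainly rempA, which had 123 of the 188 CPM over all libraries. Transcription factors of olfactory neuron identity had 6 of 6 tested genes above 0 with a median of 0.21, 0 called and 3 at an unadjusted p under 0.05, and brain neuron markers 6 of 6 above 0 with a median of 0.18 and 0 called. Of 5 tested fat body markers, 3 lay above 0 and 2 below, with a median of 0.05. The larval serum protein gene Lsp2 was the 1 called, lower in shocked High at -4.74 (SE 0.94, adjusted p = 0.0245), while the yolk protein gene Yp3 had 0.05 (SE 0.09, adjusted p = 0.844). With the antennal Obp sum as a covariate, Orco turned to 0.26 (SE 0.29, adjusted p = 0.845), Ir8a was -2.16 (SE 0.82, adjusted p = 0.576), Or65b -1.87 (SE 0.85, adjusted p = 0.576) and Gr39a 0.80 (SE 0.31, adjusted p = 0.576). The part of Lsp2 and the other marker lists in these values was not tested.

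Against shocked Low, 0 of 44 members passed relative to shocked High, beside 0% of all genes. An unadjusted p under 0.05 was reached by 4 of 44 members, against 452 of 10272 genes (4.40%). Gr39a had -0.76 (SE 0.24), Ir62a -0.55 (SE 0.20) and Or65b 2.02 (SE 0.80) in Low relative to High, each with an adjusted p of 0.998. Relative to shocked Mid, 0 of 44 passed against 0.0195% of all genes. An unadjusted p under 0.05 was reached by 2 of 44 members, against 1436 of 10272 genes (14%). Ir64a had -1.83 (SE 0.56, adjusted p = 0.124), with 0.484 ± 0.350 CPM (SD, n = 9) in shocked Low. Ir8a had -1.20 (SE 0.57, adjusted p = 0.317) and Ir51b -0.52 (SE 0.28, adjusted p = 0.399). All 3 comparisons among the shocked classes share libraries, so their values are not independent.

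Between the naive classes, 0 of 44 members passed, beside 0% of all genes. An unadjusted p under 0.05 was reached by 317 of 10272 genes (3.09%) and by 1 of 44 members. It was Ir8a, at 1.31 (SE 0.63, adjusted p = 1) in High relative to Mid. Ir68a had 0.41 (SE 0.22) and Or45a, a receptor described in larvae, -1.42 (SE 0.83), both with an adjusted p of 1. Or45a had 0.866 ± 0.371 CPM (SD, n = 7) in naive Mid and 0.277 ± 0.376 CPM (SD, n = 7) in naive High.

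By role, the 2 tuning receptors with the most reads, Or43b and Ir76a, had group means close to each other. Both share exon bases with another gene, 40.7% for Or43b and 14.1% for Ir76a. Or43b had group means of 39.4, 43.9, 36.9, 39.2 and 39.5 CPM in naive Mid, naive High, shocked Mid, shocked High and shocked Low, and Ir76a had 27.8, 27.5, 27.4, 26.2 and 26.2 CPM. For Or43b the 8 log2 fold changes lay between -0.16 (SE 0.11) for shock within High and 0.15 (SE 0.11) for naive High against Mid. Or63a lay between 7.28 ± 1.57 CPM (SD, n = 8) in shocked Mid and 10.2 ± 1.84 CPM (SD, n = 7) in naive High. The fatty acid receptor Or47b was between 1.46 ± 1.60 CPM (SD, n = 6) in shocked High and 3.16 ± 1.11 CPM (SD, n = 8) in shocked Mid. The acetate ester receptor Or59b lay between 1.26 CPM in naive High and 2.39 CPM in shocked Mid. Or1a, Or45b and Or83a, described mainly in larvae, had 2.08, 1.76 and 3.61 CPM over all libraries, and each overlaps or lies inside another gene.

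The 7 odorant receptors of the maxillary palp summed to 2.01 ± 1.17 CPM (SD, n = 7) in naive Mid and 2.66 ± 1.67 CPM (SD, n = 7) in naive High. The shocked groups had 4.33 ± 1.86 CPM (SD, n = 6) in High, 4.82 ± 3.10 CPM (SD, n = 9) in Low and 4.96 ± 2.91 CPM (SD, n = 8) in Mid. The lowest library of each shocked group, at 0.931, 1.57 and 1.85 CPM, lay below the naive medians of 2.13 and 2.25 CPM, so the groups overlapped. Or46a alone gave 1.24 of the mean of 3.83 CPM, and only Or46a and Or59c of the 7 passed the filter. The phenol receptor Or71a had 0.815 CPM and Or85e 0.581 CPM over all libraries, both below the filter, and Or59c had 0.88 (SE 0.70, adjusted p = 0.852) for shock over both classes.

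The 6 ionotropic receptors that need Ir8a summed to 4.38 ± 1.97 CPM (SD, n = 6) in shocked High and 6.61 ± 1.89 CPM (SD, n = 8) in shocked Mid, with the other groups between 4.42 and 5.21 CPM. Ir75a, the best covered of them, had 1.77 ± 1.60 and 2.52 ± 1.49 CPM in those 2 groups, and its fitted log2 difference was -0.52 (SE 0.56, adjusted p = 0.697). Ir31a had -0.08 (SE 0.49, adjusted p = 0.957), and Ir64a, another of these partners, -1.80 (SE 0.64, adjusted p = 0.118). The 3 tested partners were all below 0, with a median of -0.52, a change smaller in size than the -3.28 of Ir8a itself. The difference between these values was not tested. The 4 thermo- and hygrosensory ionotropic receptors, Ir21a for cooling, Ir40a and Ir68a for dry and moist air and Ir93a as their shared subunit, summed to 8.67 to 10.3 CPM as group means. Ir21a had 1.65 CPM, Ir93a 0.870 CPM and Ir40a 0.479 CPM over all libraries.

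Among gustatory receptors, the fructose receptor Gr43a had 4.58 ± 1.23 CPM (SD, n = 37), and group means between 4.003 ± 1.24 (SD, n = 6) in shocked High and 5.33 ± 1.54 (SD, n = 8) in shocked Mid. The 9 sugar receptors summed to 7.98 to 10.04 CPM as group means, and Gr5a ran from 1.17 ± 0.673 CPM (SD, n = 7) in naive Mid to 2.17 ± 0.744 CPM (SD, n = 6) in shocked High. Gr64f, the shared sugar co-receptor, had 1.37 CPM. The 35 bitter-neuron receptors summed to 13.8 ± 2.36 CPM (SD, n = 6) in shocked High, and to between 10.2 and 11.1 CPM in the other 4 groups. Their 4 tested members, among them Gr32a with 2.80 CPM, the canavanine receptor Gr8a with 1.55 CPM and Gr39a, were all above 0 in shocked High against Mid with a median of 0.52, and 0 of the 4 passed. These named members are not free of other genes, whereas Gr66a, also tested, is free and had 1.11 (SE 0.53, adjusted p = 0.255). The free gustatory receptors of all roles summed to 8.66 ± 1.56 CPM (SD, n = 6) in shocked High. In the other 4 groups that sum was 7.17 to 8.39 CPM. The carbon dioxide receptors Gr21a and Gr63a had 40 and 74 reads over all libraries, and neither passed the filter. The less well-known Ir85a, Ir100a, Gr94a and Gr77a had 5.68, 1.01, 0.853 and 0.610 CPM, and lie within or across other genes.

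The olfactory co-receptors varied from fly to fly together with the RNA of antennal odorant-binding proteins, which are made by the support cells around the olfactory neurons and not by the neurons. After group means were removed, Orco and the summed antennal Obp genes had r = 0.775 and rho = 0.824 over 37 libraries (permutation p = 2e-05 and 1e-05, the latter the smallest possible; p = 8e-05 for r adjusted over the 4 co-receptors). Without the 2 libraries farthest from the median of the Obp sum r was 0.754. Within the groups, in the order naive Mid, naive High, shocked Mid, shocked High and shocked Low, r was 0.176, 0.934, 0.696, 0.808 and 0.812. The 2 libraries with the least Obp RNA, shocked High replicate 2 with 1442 CPM and shocked Low replicate 7 with 1699 CPM, also had the least Orco, at 4.88 and 8.14 CPM.

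The ionotropic co-receptors followed the same sum less closely. Ir8a had r = 0.600 and rho = 0.614 (n = 37, permutation p = 0.00049 and 0.00029, adjusted 0.00098 and 0.00058), and r = 0.636 without the 2 farthest libraries. Ir76b had r = 0.473 and rho = 0.480 (n = 37, permutation p = 0.00206 and 0.00322, adjusted 0.00275 and 0.00429), and 0.481 without them. Ir25a had r = 0.448 and rho = 0.439 (n = 37, permutation p = 0.00547 and 0.00743, adjusted p the same), and 0.432 without them. Within groups Ir25a ran from -0.13 in shocked High to 0.867 in naive High, Ir76b from 0.236 to 0.679 and Ir8a from 0.268 to 0.948.

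Obp19d and Obp56d, which are also made in taste organs, gave 55.95% and 15.99% of the Obp sum. Without these 2 genes r was 0.863 for Orco, 0.514 for Ir8a, 0.288 for Ir25a and 0.271 for Ir76b, the last 2 with an adjusted permutation p of 0.044. That sum was added after seeing the data.

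Among the other better measured members, Or59b had r = 0.673 with the Obp sum (n = 37, permutation p = 3e-05), Ir75a 0.592 (p = 0.00095), Gr64f 0.492 (p = 0.00259) and Or22b 0.473 (p = 0.00405, permutation), with p adjusted over 48 relations of 0.00072, 0.0152, 0.0311 and 0.0389. By rank, Or22b had rho = 0.437 with an adjusted permutation p of 0.097. Or47b had r = 0.411 (adjusted permutation p = 0.185). Or43b had r = -0.286, Or63a -0.306, Or13a -0.303, Ir76a 0.043 and Ir68a -0.05, each with an adjusted permutation p of 0.307 or more. As a description, the 16 free members had a median r of 0.251 between -0.306 and 0.775, with 12 above 0, and the 18 overlapping ones a median of 0.073, also with 12 above 0. All relations share depth and library scaling, and more antennal tissue on a head and more RNA per antenna cannot be told apart.

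**Figure D5:**
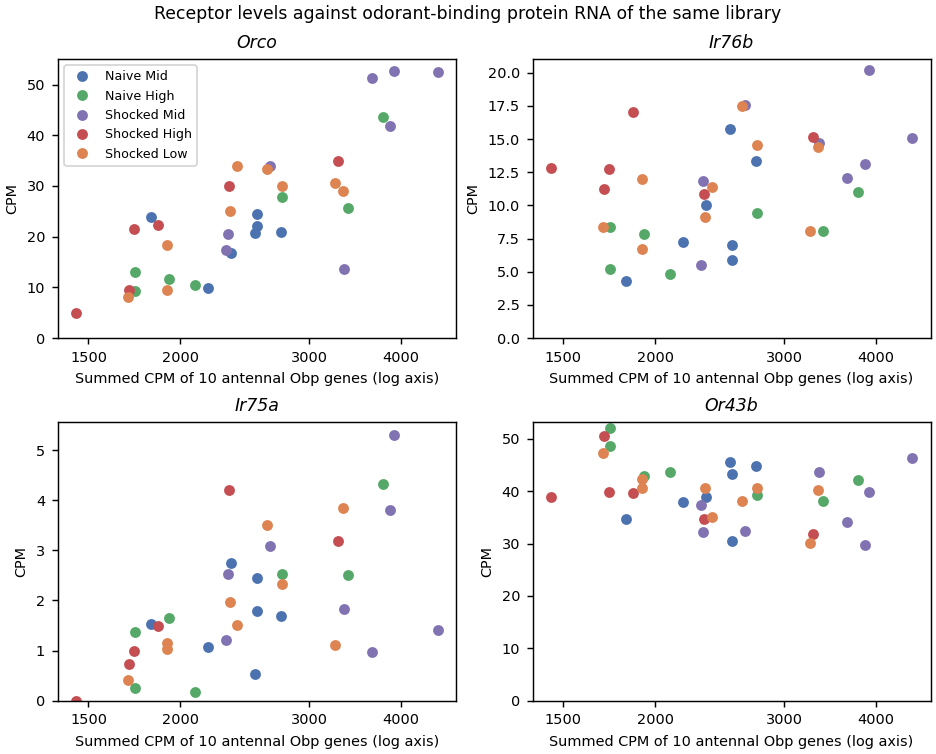
CPM of Orco, Ir76b, Ir75a and Or43b in each of 37 libraries against the summed CPM of 10 antennal odorant-binding protein genes in the same library (log axis), coloured by group. Orco climbs from 4.88 CPM at the lowest Obp sum of 1442 CPM to above 50 CPM near the top, while Or43b stays between 29.7 and 52.2 CPM throughout.

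The authors' deposited table of pairwise comparisons lists 177 of the members, each with a log2 fold change and an adjusted p-value (q). The sources used here do not say which libraries entered it. For shocked High against shocked Mid, the authors' deposited table has 5 of 177 members with q under 0.05, beside 525 of its 15947 genes (3.29%). In the authors' deposited table these are Or65b with a log2 fold change of 2.88 towards shocked Mid (q = 0.00282), Ir8a with 3.45 (q = 0.00449), Gr39a with -0.79 (q = 0.0275), Ir62a with -0.57 (q = 0.0424) and Ir64a with 1.82 (q = 0.0435). The same 5 genes had the 5 smallest p among members in the edgeR fit of that contrast, where their adjusted p was 0.066 to 0.126. For naive High against shocked High, the authors' deposited table has Ir76b at 0.77 towards shocked High (q = 0.0278), beside 0.056% of its genes with q under 0.05. For naive Mid against shocked Mid, the authors' deposited table has Orco at 0.83 towards shocked Mid with q = 0.0987.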

How the data were processed

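RNA was measured in 37 single-head libraries. The deposited counts are raw, per gene and on exons: per the series design text, the authors selected mRNA with oligo dT beads, aligned trimmed reads to dm6 with STAR, dropped alignments of low mapping quality or that were not primary, and counted with HTSeq-count. Reads that map equally well to near-identical receptor genes can be lost in that step. A second deposited table has, per its headers, log2 fold changes between groups with q-values, made by the authors with DESeq2. For tool versions and strand setting the sources used here give nothing. The extraction text also names nuclear RNA-seq, which was not resolved.

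Samples were grouped by title. Of the shocked High samples, 2 have no column of counts, and 2 columns matched no sample and were not used. Genes were filtered with filterByExpr by group (10272 kept), TMM-scaled and fitted with edgeR 4.0.16 in R 4.3.3 as one quasi-likelihood model of 5 groups, with 8 contrasts and Benjamini-Hochberg adjustment over all tested genes at 0.05. CPM use TMM-scaled library sizes, log2 CPM a prior count of 2, and RPKM the union exon length of Ensembl release 115. Correlations used 100000 permutations within groups (two-sided). Alternatives were RLE scaling, a filter of 10 reads over all libraries, DESeq2 1.42.0, limma-voom (limma 3.58.1), only the groups compared, a replicate block, leaving out each library, and, added after seeing the data, antennal Obp RNA as a covariate. The fit was tested on simulated counts. Tables were made in Python 3.11.15 with pandas 2.3.3, scipy 1.17.1 and numpy 2.4.6, and figures with matplotlib 3.10.9.

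Members and gene lists were chosen with earlier results of these data known. Named were the 4 co-receptors, members with a mean of at least 1 CPM, the 3 tested members with the smallest p in each contrast, and the 5 highest members below the filter. Or47a, Gr66a, Or59c, Gr94a, Ir93a, Or19a, Or19b, Gr21a and Gr63a were added after their values were seen. The replicate numbers of the titles were not used as pairs, since nothing says that they mark a shared litter, batch or day.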

Additional observations from a re-analysis of the deposited data

Results flagged for a closer look

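In 210 sets of a named member and a group, the highest and the lowest library were checked with Dixon's 95% rule for 6 to 9 libraries. In 18 cases a library lay far from the next one, and in all of them it was the highest. At 1 in 20, chance alone would give about 10.5 for both ends together. That number holds for normally distributed values, which was not checked for these CPM. Naive High replicate 3 was flagged for 3 members: Or47b with 5.44 CPM (next 1.73), Ir31a with 5.27 CPM (next 1.67) and Or85e with 1.21 CPM (next 0.378). This library also had the most Orco of its group, 43.6 CPM. The share that antennal RNA has in these values was not tested.

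For Ir8a, shocked High replicate 3 had 0.532 CPM, from 4 reads, beside 0.12 CPM in the next library. Shocked Mid replicate 1 was high for Ir76a with 35.8 CPM and for Gr61a with 3.34 CPM. The other libraries far above the rest of their group were shocked Low replicate 2 for Or63a with 15.7 CPM, shocked Mid replicate 7 for Ir51b with 10.4 CPM, shocked High replicate 1 for Or47b with 4.45 CPM and shocked Mid replicate 8 for Or1a with 3.82 CPM. At lower levels they were naive Mid replicate 3 for Or45b with 2.82 CPM, naive Mid replicate 4 for Or46a with 2.37 CPM, naive High replicate 4 for Ir64a with 2.25 CPM, shocked Mid replicate 6 for Or45a with 1.69 CPM and naive Mid replicate 2 for Or67d, the receptor of a male pheromone, with 1.17 CPM. Shocked Low replicate 1 had 5.02 CPM of Or71a, shocked High replicate 2 had 2.02 CPM of Gr77a and shocked Low replicate 3 had 3.04 CPM of Or85e.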

How the results depend on the processing

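With all libraries kept, 0 of the tested members were called in the 8 contrasts under RLE scaling, limma-voom, the lower filter, only the groups compared and the antennal covariate. DESeq2 called 1 member, Ir8a, in the difference of the shock effects. The fit with the replicate block called 3 members in shocked High against Mid: Ir8a (-3.38, adjusted p = 0.0176), Or65b (-3.01, adjusted p = 0.0184) and Gr39a (0.81, adjusted p = 0.0466), beside 748 genes in all against 7 without it (310 with DESeq2, and 0 to 548 without single libraries). What the replicate numbers mark is not stated. Of 67 same-numbered pairs across groups 17 correlated above 0.1, with a median r of 0.0176, beside -0.000647 for pairs with different numbers. Of 37 libraries 7 correlated best with their own number. No chance expectation was computed for these counts, so whether the numbers hold a batch was not tested. Leaving out 1 library gave 0 to 1 members in the difference of the shock effects, 0 to 2 in shocked High against Mid and 0 in the other 6 contrasts. In shocked High against Mid, Ir8a passed without naive High replicate 7 (adjusted p = 0.0468), shocked Mid replicate 8 (0.0472), shocked Low replicate 3 (0.0491) or shocked High replicate 3 (-4.84, adjusted p = 0.0189), where Or65b passed too (-2.72, adjusted p = 0.0418); the cause was not tested. Ir8a fell under the filter in 7 of 44 alternative fits.

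Log2 fold changes were followed through the alternatives for the 4 co-receptors and the 3 members with the smallest p in each contrast, and the signs that turned there were of co-receptor differences that had not passed. Orco for shock within High was -0.0052 under RLE, -0.18 with limma-voom, -0.0070 under the lower filter and -0.0146 with the replicate block, and -0.22 to 0.31 without single libraries. With the covariate, Orco was 0.26 in shocked High against Mid and 0.45 in the difference of the shock effects, Ir25a 0.42 and 0.31, and Ir76b 0.40 in shocked High against Mid. For that contrast limma-voom gave 0.0012 for Ir25a and 0.0258 for Ir76b, and the replicate block 0.0886 for Ir76b. Without single libraries, Ir25a ran from -0.175 to 0.0119 and Ir76b from -0.172 to 0.0531 there, and from -0.465 to 0.0193 and -0.0257 to 0.271 in the difference of the shock effects. Counting at least 3 reads as detection gave 47 members in 19 or more libraries, and a mean of at least 2 CPM kept 18 members. The 4 co-receptor correlations with Obp RNA kept their sign and passed with group means left in, with a prior count of 0.5 and without the 2 leading Obp genes. Over all libraries together, 139 of 186 members reach 10 reads.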

Other observations

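Fat body markers, led by Lsp2 with 246 CPM over all libraries and Yp3 with 126 CPM, summed to 277 ± 41.6 CPM (SD, n = 6) in shocked High and 913 ± 769 CPM (SD, n = 8) in shocked Mid. Lsp2 alone had 24.3 ± 20 CPM (SD, n = 6) and 653 ± 794 CPM (SD, n = 8) in those groups, and Yp3 had 122 ± 9.91 and 118 ± 15.4 CPM, so the sums follow Lsp2. Brain neuron markers, led by nSyb and Syt1, had 6 of 6 values below 0 in shocked against naive Mid, with a median of -0.19 and 0 called. Photoreceptor markers, led by ninaE and Arr2, had a median of -0.04 there with 0 called. Transcription factors of olfactory neuron identity, led by chn and onecut, which other head cells also use, had a median of -0.14 in that contrast with 0 of 6 called. Channels of taste and pheromone sensing outside the receptor families, led by wtrw and pain, had a median of 0.16 with 0 of 9 called, and sensory cilium genes, led by rempA and Oseg1, a median of 0.08 with 0 of 14 called.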
